A study of Mus musculus with 5 samples.

Results

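The MHC class II genes are the 8 genes Cd74, H2-Aa, H2-Ab1, H2-Eb1, H2-DMa, H2-DMb1, H2-DMb2 and Ciita, chosen by symbol from the 31053 genes of the count matrices. Their transcripts were counted in single cells of mouse bone marrow (BM) in 5 libraries, 1 for each condition. Whole BM came from untreated (naive) mice and from mice 2 days (D2 CTX) or 7 days (D7 CTX) after cyclophosphamide (CTX), an alkylating chemotherapy agent given into the peritoneum at 150 mg/kg. The other libraries held CD11b+Ly6Chi BM monocytes purified by sorting, 1 from naive and 1 from CTX-treated mice, and for the treated one the labels give no day whereas the methods give day 7. The mice were BALB/c animals of both sexes, 4 to 8 weeks old, and the labels name no engineered allele in any group. Each whole BM library pooled equal numbers of live cells of 3 mice, and the number of mice behind a sorted library is not given in the sources used here. With 1 pooled library per condition there was no replicate and no test between conditions, and no difference below can be measured against variation from mouse to mouse.

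MHC class II molecules present peptides taken up from outside the cell to CD4+ T cells. H2-Aa and H2-Ab1 encode the alpha and beta chains of H2-A, and H2-Eb1 encodes the beta chain of H2-E. Cd74 encodes the invariant chain, which fills the peptide groove of newly made class II molecules and guides them to endosomes. H2-DM, a dimer of H2-DMa with H2-DMb1 or H2-DMb2, then exchanges the remaining invariant chain fragment for peptide. Ciita encodes the coactivator without which class II genes are barely transcribed. It acts through the factors RFX, CREB and NF-Y, which sit side by side on the promoters. In BM, dendritic cells, macrophages and B cells are known for class II, B cells gain it as they mature, and plasma cells switch Ciita off.

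Several of the promoters share an arrangement of letters. The pattern AAC, which ends the core of the X box bound by RFX, then 25 to 33 bases, then ATTGG, the NF-Y core, was searched on both strands of RefSeq promoter windows of 300 bases (GRCm38.p6), and its spacing was chosen after the sequences were seen. It was present in the windows of H2-Aa, H2-Eb1, H2-DMb1 and H2-DMb2 and in neither of the 2 windows of H2-DMa, against 5.17% of all 32851 windows (ATTGG alone was in 37.4%). A match is a description of letters and not a site. The 3 stretches below are shown because they belong to an alpha chain, a beta chain and an H2-DM chain that are followed through the cell types, with AAC and ATTGG in capitals and each read 5′ to 3′ on the strand of its gene.
H2-Aa, chr17:34287855-34287914, minus strand: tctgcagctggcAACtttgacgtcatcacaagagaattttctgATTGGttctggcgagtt
H2-Eb1, chr17:34305766-34305824, plus strand: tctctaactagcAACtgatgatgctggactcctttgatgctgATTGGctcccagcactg
H2-DMb2, chr17:34145116-34145175, plus strand: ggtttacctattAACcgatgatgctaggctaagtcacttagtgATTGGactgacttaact
The arrangement had 28 bases between its ends in H2-Aa, H2-DMb1 and H2-DMb2 and 27 in H2-Eb1. In H2-DMb1 it matched that of H2-DMb2 at 32 of 36 bases.

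The genes lie in 3 places of the mouse genome (mm10, positions from GENCODE M21). H2-DMa (chr17:34119541-34139101), H2-DMb2 (chr17:34143307-34151555), H2-DMb1 (chr17:34153072-34160230), H2-Ab1 (chr17:34257689-34269419) and H2-Eb1 (chr17:34305867-34316674) are on the plus strand of the MHC on chromosome 17, and H2-Aa (chr17:34282744-34287823) is on the minus strand between H2-Ab1 and H2-Eb1. Ciita (chr16:10480059-10528418) and Cd74 (chr18:60803848-60812652) lie on chromosomes 16 and 18. BALB/c mice carry another MHC haplotype than the strain of the reference genome, and its part in the level of any 1 chain was not tested. H2-Ea, the alpha chain of H2-E, was not analysed here.

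Cells were kept with at least 200 genes and under 20% mitochondrial UMIs (unique molecular identifiers, each standing for 1 captured RNA molecule). This left 7104 naive, 6126 D2 CTX and 8290 D7 CTX cells, and 1891 naive and 2564 CTX sorted cells, with between 22279758 and 67921924 UMIs per library. Median depth was 3954, 3034 and 7190 UMIs per cell in whole BM and 10299 and 9694 in the sorted libraries. Any pair of libraries shared 1 to 15 barcodes. Cells were put into classes by marker genes, none of them a class II gene, so a name such as monocytes stands for monocyte-like cells by those markers. The labels call the whole BM cells mononuclear and CD45+, but the neutrophil gate held 38.4%, 37.6% and 70.7% of the naive, D2 CTX and D7 CTX cells, and 398 naive cells passed the erythroid gate. The monocyte gate took 96.0% and 94.1% of the sorted cells.

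A level is given in CPM, the UMIs of a gene per 1000000 UMIs of the cells summed. Intervals are exact at 95% and cover counting error only. A gene was compared when it had at least 200 UMIs over both libraries and at least 20 CPM in 1 of them, and it is called higher or lower when at least 1 log2 unit apart after adding 1 CPM. Cd74, H2-Aa, H2-Ab1 and H2-Eb1 summed are called the 4 chain genes.

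Over all cells of whole BM, class II RNA was above naive on day 2 and far below naive on day 7. In naive, D2 CTX and D7 CTX BM, in this order, Cd74 stood at 412, 763 and 95.2 CPM. H2-Aa stood at 195, 243 and 53.1 CPM, H2-Ab1 at 127, 178 and 34.4 CPM, and H2-Eb1 at 93.1, 146 and 24.0 CPM. All 4 thus had their highest level in D2 CTX and their lowest in D7 CTX BM. For the 4 chain genes together the log2 ratio to naive was 0.68 (0.66 to 0.70) on day 2 and -2.0 (-2.03 to -1.97) on day 7, a 4.01-fold lower level. Across other ways of processing these ratios ran from 0.29 to 0.72 and from -2.61 to -1.34.

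On day 7 the genes for peptide loading lay nearer to naive than the chains, while on day 2 both spanned a like range. H2-DMa was at 63.8, 92.0 and 45.0 CPM, and on day 7 its log2 ratio to naive was -0.50 (-0.58 to -0.43). The day 2 log2 ratios were 0.53 for H2-DMa, 0.24 for H2-DMb1 and 0.86 for H2-DMb2, beside 0.32 (H2-Aa) to 0.89 (Cd74) for the chains. H2-DMb1 was at 14.1, 16.6 and 10.6 CPM and H2-DMb2 at 15.4, 28.0 and 7.41 CPM. Ciita, the regulator of the set, had 12.1, 16.7 and 2.13 CPM, so that its day 7 ratio of -2.51 (-2.78 to -2.24) lay nearer to that of the chains than to that of H2-DM. On day 2, 6 of the 8 genes had enough UMIs to be compared and none was 1 log2 unit apart, where 8.62% of all 6221 genes were, and their median was 0.58 beside 0.17 over all genes. On day 7, 5 were compared and 4 were lower, where 22.3% of 5608 genes were, and their median was -1.86 beside -0.58. Cell types differed between these libraries as well, so each class of cells was also compared by itself.

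**Figure D1:**
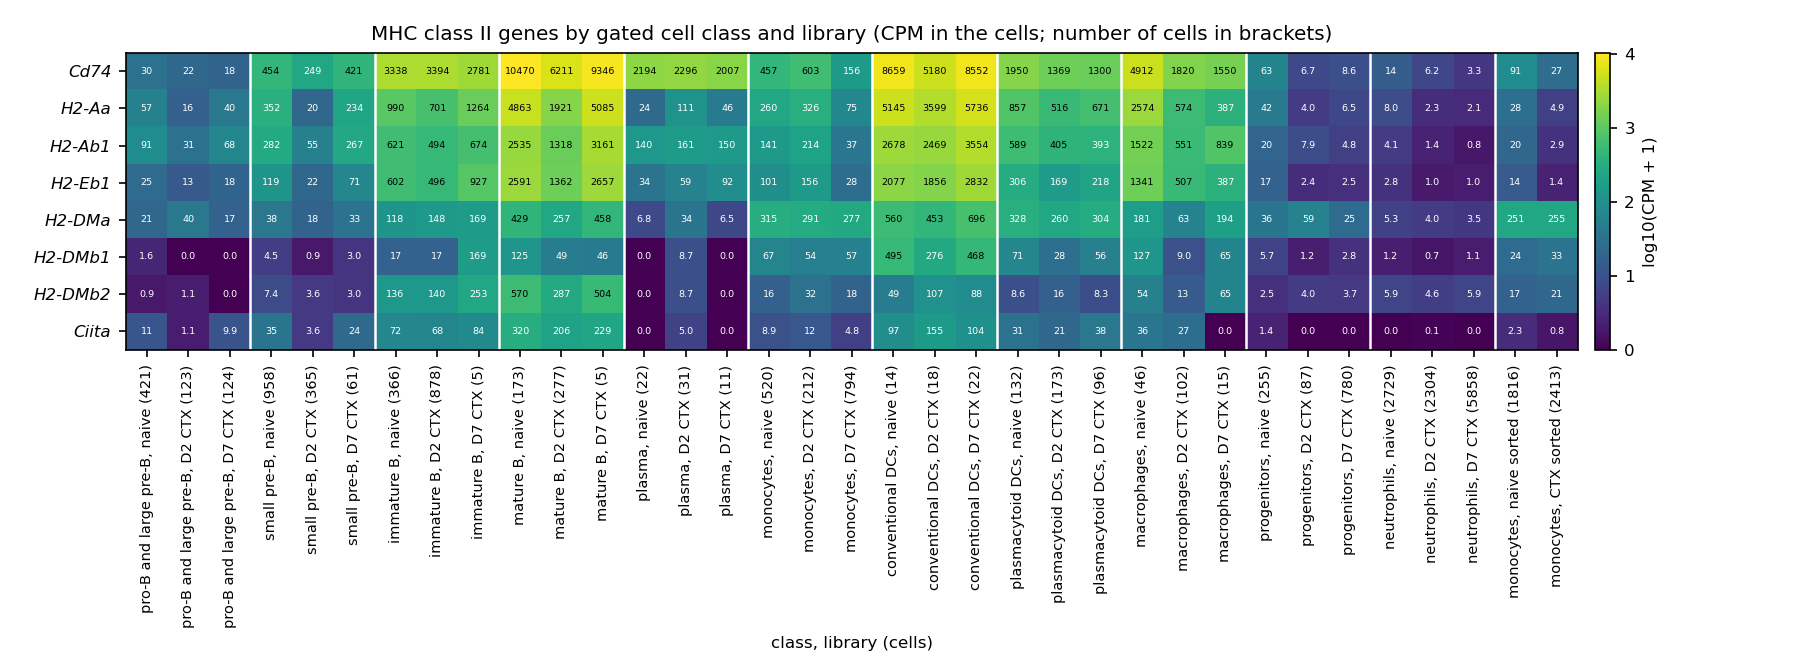
Heat map of the 8 class II genes (rows) by marker-gated class and library (columns, with the number of cells), with the level in CPM written in each field and the colour giving log10(CPM + 1). Cd74 ranged from 3.30 CPM in D7 CTX neutrophils to 10470.2 CPM in naive mature B cells, while H2-DMa in monocytes stayed between 277 and 315 CPM in whole BM.

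Within naive BM the 4 chain genes were ordered by cell type. Conventional dendritic cells (DCs) and mature B cells were highest. The former, of which only 14 were gated, had 8659 CPM of Cd74 and 5145 CPM of H2-Aa, and the latter 10470.2 and 4863 CPM. Macrophages had 4912 and 2574, immature B cells 3338 and 990, and plasmacytoid DCs 1950.5 and 857. The place of macrophages in this order is uncertain, as it rests on 46 shallow cells and their day 2 ratio depended on the gate. Monocytes (457 and 259.9) and small pre-B cells (454 and 352) came next, with close levels of Cd74. The monocyte level rested on few cells, as given below, and without them was 66.5 CPM of Cd74. Neutrophils, which are not known for class II, gave 14.4 CPM of Cd74, and at 1000 UMIs per cell 0.563% of them had a Cd74 UMI. This is the level that free RNA in the droplets may reach, and it set the background.

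Class II RNA differed stepwise between the B cell gates. Stages were gated by Igll1, Vpreb1 and Dntt (pro-B and large pre-B cells), Rag1, Rag2 and Vpreb3 (small pre-B), Ms4a1 (immature) and Ighd, Fcer2a and Cr2 (mature). The small pre-B gate also held cycling cells. In naive BM 339 of its 958 cells had a UMI of Mki67 or Top2a, and Mki67 was at 913 CPM beside 838 in pro-B and large pre-B cells, so the name stands for the gate (pre-B cells low in Igll1, Vpreb1 and Dntt) and not for resting cells. In naive BM Cd74 went from 30.4 CPM in pro-B and large pre-B cells to 454 in small pre-B, 3338 in immature and 10470.2 in mature B cells. H2-Aa went through 57.3, 352, 990 and 4863 CPM over the same stages, and H2-Ab1 through 90.6, 282, 621 and 2535 CPM. Cd74 thus gained more over these stages than H2-Ab1 did. The ratio of Cd74 to H2-Ab1 UMIs was 0.335 in pro-B and large pre-B cells, 1.61 in small pre-B, 5.38 in immature and 4.13 in mature B cells. UMIs mark the 3′ ends of transcripts and carry no length term, but capture may differ between genes, so such ratios are read only between cell classes.

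The H2-DM genes stayed low until the immature stage. H2-DMa was at 21.5, 37.8, 118 and 429 CPM from pro-B to mature B cells. H2-DMb2 was at 0.913, 7.35, 136 and 569.6 CPM, with the largest fold step between small pre-B and immature B cells. H2-DMb1 stood at 1.60, 4.46, 17.2 and 125 CPM. Ciita was at 10.7, 35.2, 71.7 and 319.96 CPM and so was detected already in pro-B and large pre-B cells, at 47 UMIs in 421 cells.

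**Figure D2:**
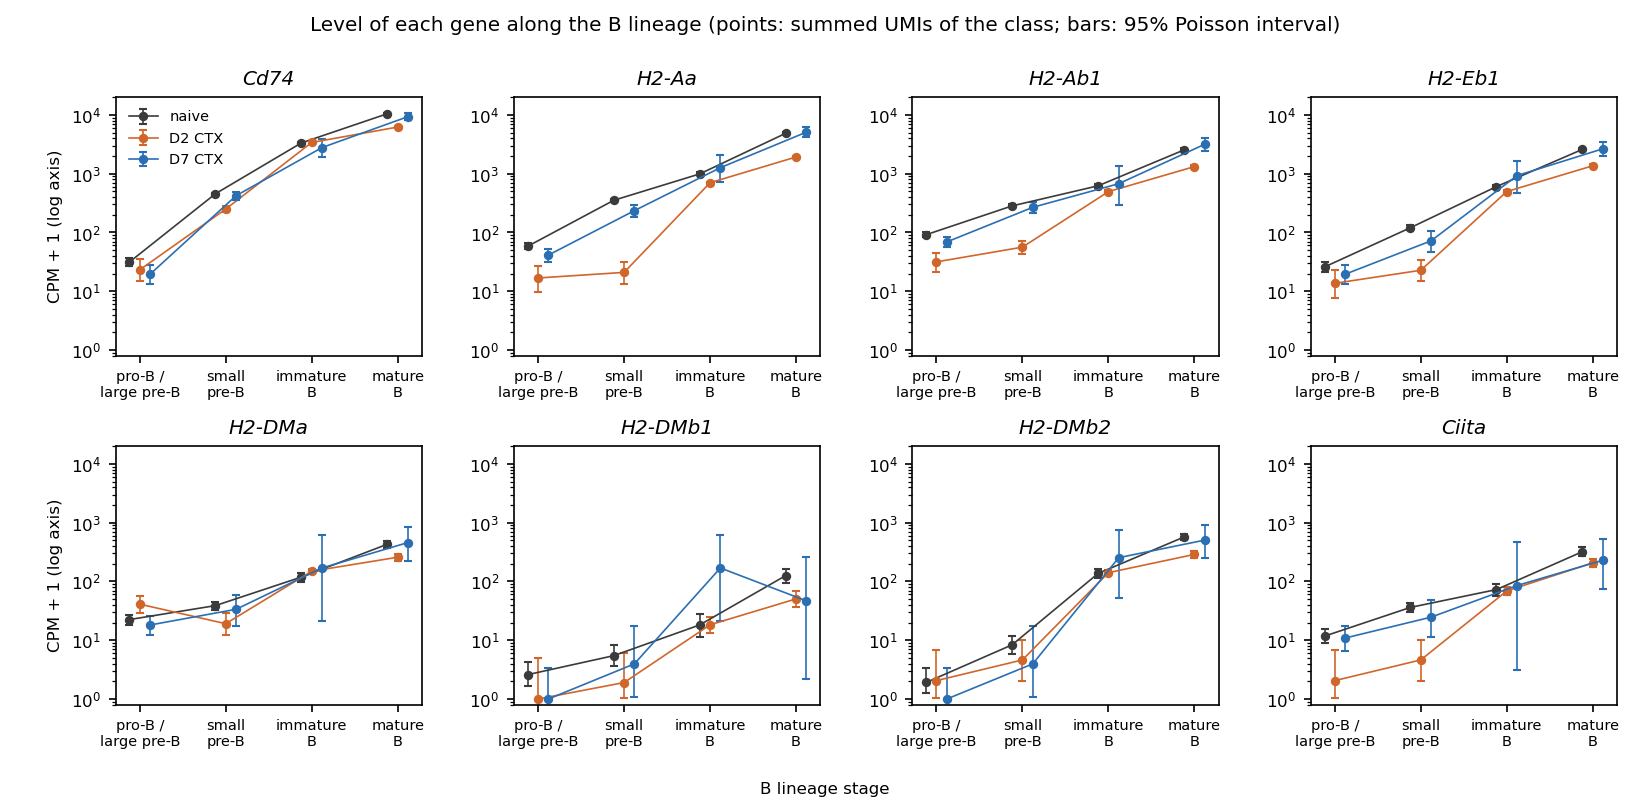
Level of each class II gene (CPM + 1, log axis) over 4 B cell stages, 1 line per whole BM library, with exact Poisson intervals at 95% as bars. At the small pre-B stage the D2 CTX line of H2-Aa (19.9 CPM) lies far below naive (352) and D7 CTX (234), and the lines meet at the immature stage, where D7 CTX BM had only 5 cells.

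Small pre-B cells 2 days after CTX stood apart from naive ones in chain RNA. The gate held 958 naive, 365 D2 CTX and 61 D7 CTX cells. H2-Aa was at 352, 19.9 and 234 CPM in the 3 libraries, from 1339 UMIs in naive and only 22 UMIs in D2 CTX cells. The day 2 ratio was -4.14 on the log2 scale (-4.82 to -3.54), a 17.6-fold lower level. H2-Ab1 had 282, 55.2 and 267 CPM, H2-Eb1 had 119, 21.7 and 71.1 CPM, and Cd74 had 454, 249 and 421 CPM. The chains thus lay lower in D2 CTX than in both other libraries, H2-Aa by far the most and Cd74 the least (log2 ratios of -2.35, -2.46 and -0.87 for H2-Ab1, H2-Eb1 and Cd74).

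Ciita had too few UMIs to be compared by the rule and is given by its counts. It had 134 UMIs (35.2 CPM) in naive and 4 UMIs (3.62 CPM) in D2 CTX small pre-B cells, a log2 ratio of -3.28, and 23.7 CPM in D7 CTX cells. H2-DMa was at 37.8, 18.1 and 32.6 CPM, and H2-DMb1 and H2-DMb2 had 1 and 4 UMIs in D2 CTX cells, too few to place. On day 2, 4 of the 8 genes were compared and 3 were lower, where 8.09% of 3871 genes were, with a median of -2.37 beside -0.03 over all genes. On day 7 none of 4 was apart, where 4.3% of genes were, and the 4 chain genes stood at a log2 ratio of -0.28.

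The same difference was seen in the share of cells. At 1000 UMIs per cell, a UMI of the 4 chain genes was found in 38.3% (naive), 12.8% (D2 CTX) and 31.1% (D7 CTX) of small pre-B cells (59.1%, 23.0% and 55.7% without thinning). For H2-Aa alone the shares were 17.4%, 1.40% and 11.5%. Neutrophils of the same libraries had 1.13%, 1.39% and 0.223% for the 4 chain genes.

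The D2 CTX small pre-B cells also differed in proliferation genes. Mki67, a marker of cycling cells, had 913, 72.4 and 856 CPM in the naive, D2 CTX and D7 CTX small pre-B cells, and Top2a 981, 86.9 and 883 CPM. Rag1, which cuts the immunoglobulin loci, was at 253, 585 and 189.5 CPM. Among cells with no UMI of Mki67 or Top2a (619 naive, 346 D2 CTX and 38 D7 CTX cells) the 4 chain genes were at 1437, 315 and 1317 CPM. Among these H2-Aa stood at 376, 15.6 and 163 CPM and Cd74 at 692, 230.2 and 853 CPM. The day 2 log2 ratio of the 4 chain genes was -2.19 there and -1.80 (-1.96 to -1.65) in all small pre-B cells. A cell with no such UMI, at a median of 2365 UMIs in naive BM, may still be cycling, and the part of cycling, Rag1 level or substage in the difference was not tested.

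For the 4 chain genes summed, the other B stages differed less on day 2. Pro-B and large pre-B cells (421 naive, 123 D2 CTX) had 57.3 and 15.8 CPM of H2-Aa and 90.6 and 30.6 of H2-Ab1, and both genes that could be compared were lower, where 5.22% of 3906 genes were. Ciita had 47 UMIs in naive and 1 in D2 CTX cells of this stage. The log2 ratio of the 4 chain genes was -1.32, but -0.42 after thinning to equal depth, and H2-DMa, at 21.5 and 40.1 CPM, had a log2 ratio of 0.90 that rests on 38 UMIs in D2 CTX cells.

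Immature B cells (366 naive, 878 D2 CTX) had nearly equal levels. Cd74 was at 3338 and 3394 CPM, H2-Aa at 990 and 701, H2-Ab1 at 621 and 494, and Ciita at 71.7 and 67.9. None of the 7 genes compared was apart, where 2.8% of genes were, and their median was -0.08 beside 0.12 over all genes. The level of H2-Aa was the only one below naive by as much as 0.50 on the log2 scale.

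Mature B cells (173 naive, 277 D2 CTX) had about the same order of genes at lower levels. Cd74 was at 10470.2 CPM in naive and 6211 in D2 CTX cells, H2-Aa at 4863 and 1921, H2-Eb1 at 2591 and 1362, and Ciita at 319.96 and 206. The log2 ratio of the 4 chain genes was -0.92 (-0.96 to -0.88) and that of H2-Aa -1.34, and 1 of 7 genes compared was lower, where 0.434% of 921 genes were. H2-DMb2 had 569.6 and 287 CPM and H2-DMb1 125 and 49.5. Markers of the stage were 1355 and 771 CPM for Ighd, 601 and 607 for Fcer2a, and 1359 and 2329.8 for Ms4a1, and the part of stage within this class was not tested. Only 5 immature and 5 mature B cells were left in D7 CTX BM, so no ratio was taken.

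Plasma cells kept Cd74 while the chains were low. Their Cd74 was at 2194, 2296 and 2007 CPM in naive (22 cells), D2 CTX (31 cells) and D7 CTX BM (11 cells). H2-Ab1 had 139.7, 161 and 150.4 CPM and H2-Aa 23.8, 111 and 45.8 CPM. Ciita had no UMI in naive and D7 CTX plasma cells, which allows up to 10.2 and 19.6 CPM (3 UMIs), and 4.98 CPM in D2 CTX ones. The ratio of Cd74 to H2-Ab1 was 15.7 in naive plasma cells, beside 4.13 in mature B cells.

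In monocytes, which are known to carry class II in some cells only, the chains lay above naive on day 2 and below naive on day 7. The gate took 520 naive, 212 D2 CTX and 794 D7 CTX monocytes from whole BM. Cd74 was at 457, 603 and 156 CPM in them, H2-Aa at 259.9, 326 and 75.4, H2-Ab1 at 141, 214 and 37.0, and H2-Eb1 at 101, 156 and 27.7. The 4 chain genes had log2 ratios to naive of 0.44 (0.38 to 0.50) on day 2 and -1.70 on day 7. The summed monocyte markers were at 6181, 3549 and 6039 CPM in the same cells and the neutrophil markers at 525, 1226 and 1434 CPM, and their part in these ratios was not tested. On day 2 none of 7 genes was apart, where 7.68% of genes were (median 0.40 beside 0.05 over all genes). On day 7, 4 of 6 were lower, where 0.314% of 5726 genes were, with a median of -1.66 beside -0.06.

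The sorted monocytes showed the same order. Of the cells past the monocyte gate, Cd74 had 90.8 CPM in the 1816 naive and 26.7 in the 2413 CTX cells, a log2 ratio of -1.77. H2-Aa had 28.0 and 4.85 CPM, H2-Ab1 20.4 and 2.92, and H2-Eb1 13.5 and 1.42, with log2 ratios of -2.53, -2.81 and -3.25. Ciita was at 2.29 and 0.766 CPM, from 50 and 21 UMIs, too few to be compared by the rule. Of 6 genes compared 3 were lower, where 0.703% of 5551 genes were, and the median was -0.85 beside 0.03 over all genes. Over all cells of the sorted libraries the 4 chain genes were at 189 and 59.3 CPM, a log2 ratio of -1.67. In both naive and CTX cells the sorted monocytes had less of the chains than monocytes gated from whole BM. The sort on CD11b and Ly6C, depth and the choice of mice differ between those libraries and cannot be told apart.

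H2-DMa did not follow the chains in monocytes. From naive over D2 CTX to D7 CTX BM it had 315, 291 and 277 CPM, and the naive and CTX sorted monocytes had 251 and 255. The log2 ratio of the sorted cells was 0.02 (-0.03 to 0.07), and those of day 2 and day 7 were -0.11 and -0.19. H2-DMb1 was at 66.9, 53.7 and 56.8 CPM in whole BM and at 24.3 and 33.2 in sorted cells. H2-DMb2 was at 16.1, 31.7 and 18.3 CPM and at 17.5 and 21.3. In the sorted pair H2-DMb1 and H2-DMb2 were thus slightly above naive (0.45 and 0.29) where the 4 chain genes were far below.

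**Figure D3:**
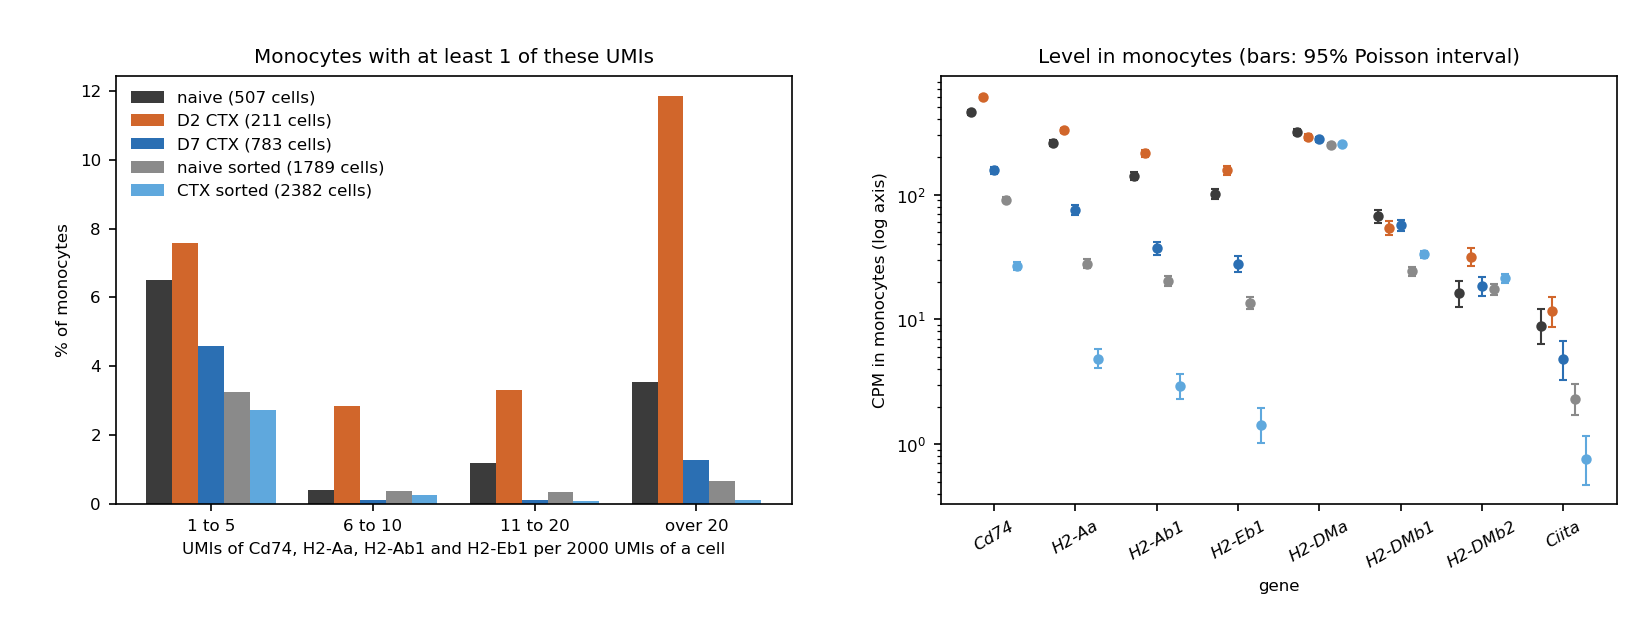
Left, percent of monocytes of each of the 5 libraries in 4 ranges of UMIs of the 4 chain genes after thinning to 2000 UMIs per cell. Right, level of each gene in all monocytes of a library (CPM, log axis, exact Poisson intervals at 95% as bars), where Cd74 and the chains lay lowest in CTX sorted cells and H2-DMa kept to 251 to 315 CPM.

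At 2000 UMIs per cell, the chain RNA of monocytes was detected in a minority of the cells. After thinning to 2000 UMIs per cell, the median monocyte had no UMI of the 4 chain genes in any of the 5 libraries, and the highest cell had between 62 and 133. Cells with more than 10 such UMIs were 24 of 507 in naive (4.73%), 32 of 211 in D2 CTX (15.2%) and 11 of 783 in D7 CTX BM (1.40%). In sorted monocytes they were 18 of 1789 naive (1.01%) and 5 of 2382 CTX cells (0.210%). The top 5% of cells held 94.5%, 53.3% and 98.6% of the chain UMIs in whole BM. In the naive and CTX sorted libraries they held all, which was bound to be so, as only 4.64% and 3.19% of cells had any. Without thinning 13.5% and 9.86% of the sorted monocytes had a chain UMI. Of their Cd74 UMIs, 603 of 1983 (naive) and 501 of 732 (CTX) lay outside the cells with more than 10 chain UMIs.

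The ratios between conditions changed when those few cells were left out. Without them the Cd74 of whole BM monocytes was 66.5 (naive), 45.9 (D2 CTX) and 30.5 CPM (D7 CTX), and in the naive and CTX sorted pair it was 27.8 and 18.3 CPM. The log2 ratio of the 4 chain genes then was -0.58 on day 2, -1.26 on day 7 and -0.77 in sorted monocytes, so the day 2 difference changed direction. The cells were left out by UMIs of the same genes, 15.2% of D2 CTX and 4.73% of naive monocytes. The new direction thus follows in part from that choice. Counting each cell equally instead gave 1.52 on day 2. H2-DMa stayed at 286, 262, 272, 247 and 255 CPM without the high cells.

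The monocytes with high chain levels also had UMIs of some DC genes. These cells were taken from the monocyte gate by their chain UMIs, so their monocyte markers and Cd74 level follow from that choice. Their Cd74 was between 7813 and 13437 CPM over the 5 libraries. Ccr2, the receptor by which monocytes leave the marrow, was between 1613 and 2503 CPM in them, and Ms4a6c between 1220.2 and 2299.9 CPM. The 10 conventional DC markers summed to 827, 375, 1004, 410.1 and 304 CPM in the high cells of the 5 libraries, with 7, 7, 5, 5 and 5 of them detected. Of these, Cd209a was at 33.8 to 618 CPM and was not the highest in every library. Xcr1, a marker of cross-presenting DCs, had no UMI in any library. In all monocytes of a library the same list was at 45.6 to 121 CPM. The plasmacytoid DC list had UMIs only in the high cells of D2 CTX BM (12.8 CPM), and the B lineage list was at 0 to 30.9 CPM. Cells that also passed the gates of those lists had been left out of the monocytes, whereas cells that also passed the conventional DC gate had not. The part of DCs among these cells was not tested.

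H2-DMa was also found in monocytes without chain RNA, but more often in those with it in naive and D2 CTX BM, where the intervals of the shares did not overlap. At 1000 UMIs per cell it was detected in 20.3% of 468 naive monocytes with no UMI of the 4 chain genes and in 55.8% of 52 with one. For D2 CTX these shares were 23.0% and 53.2%, and for D7 CTX 22.7% and 28.6%. Sorted cells, at 2000 UMIs, had 39.4% and 51.0% (naive) and 37.9% and 35.2% (CTX). In monocytes with no UMI of the 4 chain genes at 2000 UMIs it was at 273, 249, 263, 244 and 253 CPM over naive, D2 CTX, D7 CTX, naive sorted and CTX sorted libraries. Over their full depth 78.3%, 86.0%, 80.5%, 90.1% and 88.2% of those cells had a UMI of H2-DMa. After thinning whole BM cells to 1000 UMIs, a UMI of it was found in 23.8% (naive), 29.7% (D2 CTX) and 23.0% (D7 CTX) of monocytes, against 0.488%, 0.336% and 0.291% of neutrophils. The Cd74 shares at that depth were 8.85%, 21.7% and 3.03% of monocytes.

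Both kinds of DC kept chain RNA in all 3 whole BM libraries. Conventional DCs were few, with 14, 18 and 22 cells, and no ratio was taken. Their Cd74 was at 8659, 5179.6 and 8552 CPM, H2-Aa at 5145, 3599 and 5736 CPM, and Ciita at 97.4, 155 and 104 CPM. Plasmacytoid DCs numbered 132, 173 and 96, with Cd74 at 1950.5, 1369 and 1300.05 CPM and H2-Aa at 857, 516 and 671 CPM. None of 5 genes compared was apart in plasmacytoid DCs, where 1.67% of genes were on day 2 and 1.1% on day 7. The 4 chain genes stood at log2 ratios of -0.59 and -0.52.

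Macrophages gave a value that depended on the gate. Their cells were shallow, with medians of 755 UMIs in naive (46 cells) and 844 in D2 CTX BM (102 cells). Cd74 was at 4912 and 1819.98 CPM and H2-Aa at 2574 and 574 CPM, and all 3 genes compared were lower, where 6.01% of 183 genes were. The log2 ratio of the 4 chain genes was -1.58, but 0.73 with a stricter gate that left 38 and 88 cells, and no direction is read from it. Progenitors had 63.1, 6.74 and 8.64 CPM of Cd74 but 35.7, 59.1 and 24.7 CPM of H2-DMa.

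The beta chains of H2-DM stood in opposite proportions in immature and mature B cells and in monocytes and DCs. The ratio of H2-DMb1 to H2-DMb2 UMIs was 0.127 and 0.124 in naive and D2 CTX immature B cells and 0.219 and 0.172 in mature B cells. Monocytes had 4.14, 1.69 and 3.09 in whole BM from naive to D7 CTX, and 1.39 and 1.56 in the naive and CTX sorted libraries. Plasmacytoid DCs had 8.29, 1.74 and 6.80, and conventional DCs 10.2, 2.58 and 5.29. Neutrophils, at 0.195, 0.146 and 0.184, lay near the B cells, with H2-DMb2 at 4.63 to 5.94 CPM. Monocytes and DCs thus had more UMIs of H2-DMb1 than of H2-DMb2 in every library where both were counted, and the D2 CTX ratio was the lowest of the 3 whole BM libraries in monocytes and both kinds of DC.

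The genes are alike in sequence, which limits those ratios. The H2-DMb1-201 and H2-DMb2-201 transcripts are 1404 and 1424 bases long and equal at 94.6% of aligned bases. Over the last 500 bases, where the reads of a 3′ library fall, they are equal at 77.2%. Bases in gaps of the alignment enter neither value. Of the 90-base stretches in the last 500 bases of H2-DMb1, 12.7% also occur in H2-DMb2 and none of those of H2-DMb2 occur in H2-DMb1. Reads of the 2 genes are therefore assigned with some uncertainty, which applies to all classes.

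**Figure D4:**
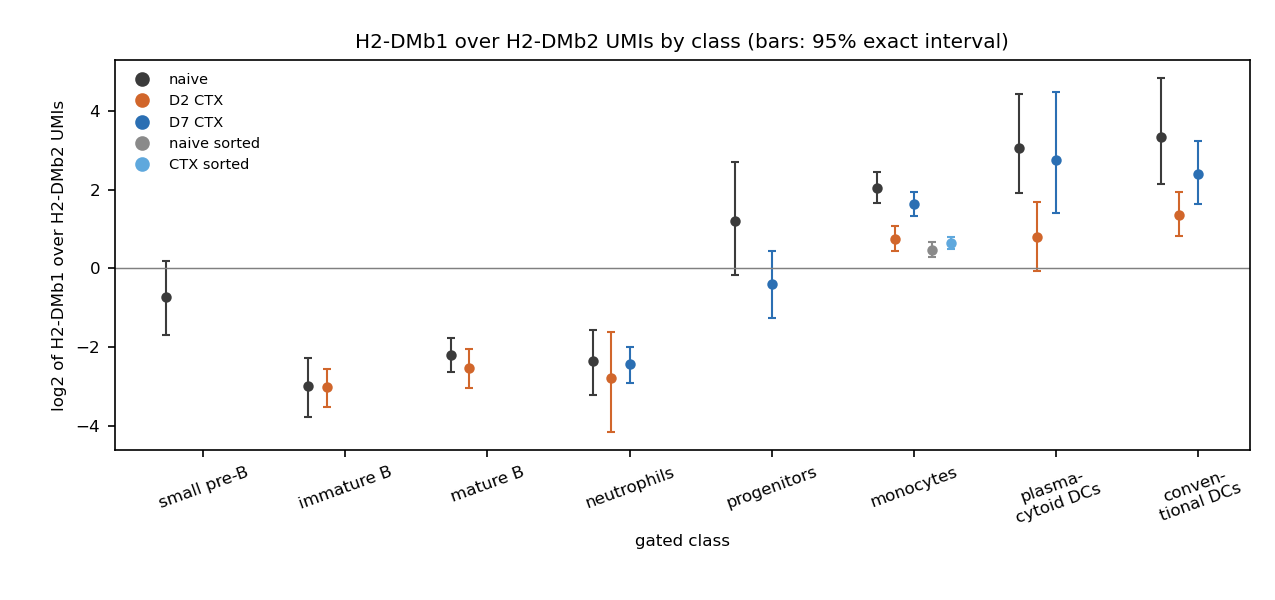
Log2 of the ratio of H2-DMb1 to H2-DMb2 UMIs by gated class, 1 point per library with enough UMIs of both genes and exact conditional intervals at 95% as bars. Immature B cells, mature B cells and neutrophils lie below the line of equal UMIs, and monocytes and DCs above it, up to a ratio of 10.2 in naive conventional DCs.

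The sum over the marrow combined cell shares and levels. In naive BM the UMIs of the 4 chain genes came to 23.6% from mature B cells, 15.2% from immature B cells, 12.1% from small pre-B cells, 10.8% from monocytes, 7.90% from plasmacytoid DCs and 6.0% from conventional DCs. In D2 CTX BM immature and mature B cells gave 27.4% and 19.8%, monocytes 12.7% and conventional DCs 10.3%. In D7 CTX BM, where the B lineage gate held 2.39% of cells against 27.5% (naive) and 27.1% (D2 CTX), the 22 conventional DCs gave 28.4% of the chain UMIs from 0.283% of all UMIs. Monocytes gave 14.6% there, plasmacytoid DCs 11.1%, and cells past no gate 22.9%.

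Setting naive levels into the shares of UMIs that each class had in a treated library separates these parts. The naive level was 828 CPM, and the observed treated levels were 1330.1 (D2 CTX) and 207 CPM (D7 CTX). With naive levels per class they would have been 1731 and 305 CPM. With naive shares and the treated levels they would have been 675 and 785 CPM. By this arithmetic the sum above naive on day 2 went with class shares, while levels per class were on balance below naive. The sum below naive on day 7 went mostly with class shares, although some of the day 7 classes had only 5 cells.

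**Figure D5:**
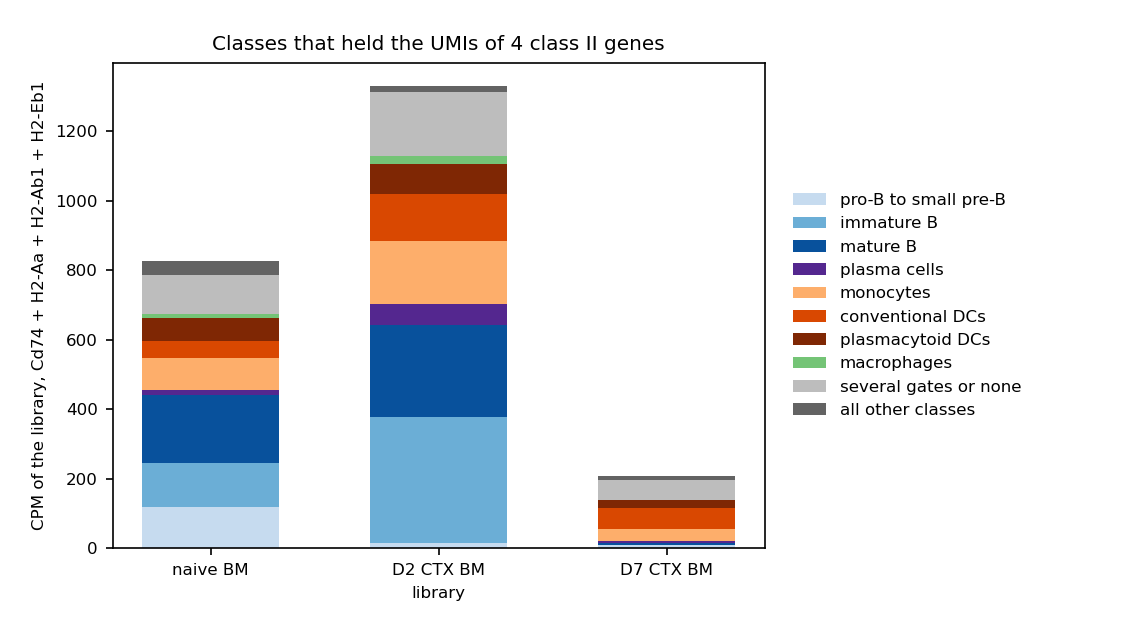
Level of the 4 chain genes in whole BM (CPM of the library) split by the class of cells that the UMIs came from, with Ly6c2-low monocytes counted among monocytes. The bars end at 828, 1330.1 and 207 CPM for naive, D2 CTX and D7 CTX BM, and mature and immature B cells are the largest classes in the naive and D2 CTX bars.

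Genes that work with class II were taken from a list of 39 for the other chains, endosomal proteases, promoter-binding factors, lineage factors, interferon signalling, turnover and costimulation, of which 36 are in the matrices. Over all cells on day 2, 24 were compared (median log2 ratio 0.23) and 1 was higher, where 5.4% of all genes were. This was Lgmn, an endosomal protease (12.4 and 33.4 CPM). On day 7, 4 of 22 were lower, no more than the 22.3% of all genes, with a median of -0.38 beside the -0.58 of all genes. These were the B cell factors Pax5, Ebf1 and Irf4 (log2 ratios of -3.27, -3.43 and -2.75) and March8, a ligase that removes surface class II (-1.51).

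In small pre-B cells on day 2, none of 19 genes of the list compared was lower, where 8.09% of all genes were. Of the 19, 2 were higher, where 3.18% of all genes were, and the median of the list was 0.44. Cd40, a costimulatory receptor, was at 34.4 CPM in naive and 103 in D2 CTX cells, and the protease Ctsd at 34.7 and 94.2. With so few genes compared, none being lower is near the share over all genes. The RFX genes Rfx5 and Rfxank had too few UMIs to be compared. Pro-B and large pre-B cells had 1 gene lower of 14 (Irf4, 97.4 and 46.4 CPM), where 5.22% of all genes were. In immature B cells 1 of 17 was higher, Ctsd (1.22), where 2.05% of all genes were. In mature B cells none of 9 was apart, where 3.58% of all genes were.

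In monocytes on day 2, 3 of 20 genes of the list were lower, where 2.52% of all genes were, and the list's median was -0.47 beside 0.05. Ctss, the protease that trims the invariant chain, was at 781 CPM in naive and 390.2 in D2 CTX monocytes, Ctsh at 364 and 165, and Irf1, an interferon factor of the Ciita promoter, at 44.4 and 18.1. On day 7 and in the sorted monocytes none of the 20 genes compared was apart, where 0.699% and 0.721% of all genes were. The medians of the list were 0.01 and -0.09. Genes of the list that fell short of the rule enter no count, and some of them differed in either direction. Cd83 had 233 UMIs (10.7 CPM) in naive and 36 (1.31 CPM) in CTX sorted monocytes. Cd80 had 8 UMIs in naive and 101 in D2 CTX monocytes of whole BM.

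Genes with the pattern most like the 4 chain genes were ranked by Pearson's r across 30 units of class and library with at least 50 cells, as a description of units that share libraries. Of 9928 genes, Cd180 (0.942), a surface receptor, and Ly86 (0.913), the secreted protein that pairs with it, came first. Hdac9 (0.909), Fgd2 (0.874), Kmo (0.873), Gdi2 (0.867), Tmem55b (0.862), Plekho1 (0.859), Pld4 (0.856) and Snx9 (0.851) followed. With units of at least 20 cells 6 of these 10 genes were again among the first 10, and Hdac9, Gdi2, Tmem55b and Snx9 were not. Of the class II genes outside the 4, Ciita was at 0.972, H2-DMb1 at 0.827, H2-DMb2 at 0.795 and H2-DMa at 0.778. Ciita was thus nearer to the chains than any gene outside the set, and the H2-DM genes were less near than Snx9.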

How the data were processed

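Single-cell RNA was measured in 5 libraries made with 10x Genomics 3′ V3 reagents. The authors deposited UMI counts per gene and barcode, unnormalized, made with Cell Ranger 3.1 against mm10 per the submitters' processing notes. The matrices hold fewer barcodes (7649 naive, 6608 D2 CTX, 8605 D7 CTX, 2223 naive sorted and 2978 CTX sorted) than the cells the study states, and the filter of the study, at least 200 genes and under 20% mitochondrial UMIs, left the cells used here. No column was left unmapped.

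Cells were gated by markers detected per cell: 3 of 5 for B lineage, 4 of 6 for monocytes, 3 of 6 for plasmacytoid DCs, 4 of 7 for macrophages, 3 of 4 for plasma cells, 3 of 10 for conventional DCs, 4 of 6 for progenitors, and 4 of 8 with at least 200 marker UMIs per 10000 for neutrophils. The conventional DC, Ly6c2-low monocyte, progenitor and neutrophil classes took only cells past none of the other gates. A cell with enough monocyte and conventional DC markers thus counted as a monocyte. Cells past several of the other gates, or past such a gate and the neutrophil gate, were left out of the classes. This served as the treatment of doublets. Scrublet (scanpy 1.11.5) was an alternative. The marker numbers of the gates were set after the marker counts were seen. The class II genes, the lists and the tests were chosen with earlier results of these data known. Named are all class II genes, pathway genes at least 1 log2 unit apart, the 10 genes most like the chains, and markers. 1 gene of the pathway list is not reported here and enters none of the list's counts.

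UMIs were summed over the cells of a class, with levels given from 5 cells and ratios from 20. Levels have exact Poisson intervals, ratios exact conditional ones and shares Clopper-Pearson ones. Shares were taken after thinning cells to 1000 UMIs (2000 for sorted cells and for monocyte distributions). Python 3.11.15, numpy 2.4.6, scipy 1.17.1 and pandas 2.3.3 were used, with figures from matplotlib 3.10.9. The call of a gene as higher or lower, the interval of a log2 ratio and the thinning were checked on simulated counts. The gates, the other intervals and the ranking of similar genes were not. Promoters came from RefSeq (GRCm38.p6) with windows for 5 of the 8 genes, and 31011 of 31053 gene IDs were found in GENCODE M21.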

Additional observations from a re-analysis of the deposited data

Results flagged for a closer look

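The 4 chain genes differed from naive in opposite directions on day 2 and day 7 in 3 populations, and the difference between days was not tested. Over all cells the log2 ratios were 0.68 and -2.0, over all B lineage cells 0.98 and -1.88, and in monocytes 0.44 and -1.70. Without the monocytes over 10 UMIs of these genes at 2000 UMIs per cell (32 of 211 on day 2) the ratios were -0.58 and -1.26, both below naive. Those monocytes were left out by the genes compared, so the day 2 direction follows in part from that choice. Within the B lineage the ratio of the sum was above naive on day 2 although no stage was, and the D2 CTX library held 878 immature B cells beside 366 in naive BM.

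Cells outside the classes also carried chain RNA above the neutrophils of their library, which had 29.4, 10.9 and 7.17 CPM in naive, D2 CTX and D7 CTX BM. Cells past no gate had 1200 CPM in naive, 778 in D2 CTX, 2350 in D7 CTX, 149 in naive sorted and 5210 in CTX sorted libraries. Cells past several gates had 853, 1430 and 263 CPM in naive, D2 CTX and D7 CTX BM. In the CTX sorted library the cells past no gate were 40, and they held 21.3% of its chain UMIs, in only 4 of the 40 cells, while 8 plasmacytoid DCs held 14.2% and the monocytes 58.0%.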

How the results depend on the processing

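No paired analysis was possible because each condition has 1 pooled library and no replicate numbers. Of 132 log2 ratios of the 4 chain genes under other processing 130 kept their sign, and of 345 values of single-gene ratios that were at least 1 log2 unit apart 338 kept it and 320 stayed at least 1 unit apart. The cells without Mki67 or Top2a and the monocytes without high cells were chosen after seeing the data. All values below are log2 ratios of the 4 chain genes unless a gene is named. Where a cause is not plain from the alternative, it was not tested.

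With at least 500 genes and under 10% mitochondrial UMIs, sorted monocytes were at -2.20 and monocytes on day 2 at 0.52, and macrophages could not be compared because 12 naive cells were left. Without called doublets, small pre-B cells on day 2 were at -1.64 and monocytes at 0.37. With the mean of single-cell CPM, day 2 gave -0.25 in immature B cells, -0.48 in plasmacytoid DCs, -0.87 in mature B cells, -1.11 in macrophages, -2.34 in small pre-B cells, 1.52 in monocytes and 0.29 in all cells, day 7 gave -0.52 in small pre-B cells, -0.73 in plasmacytoid DCs and -2.55 in all cells, and sorted monocytes gave -1.93. After thinning, day 2 gave -0.27 in immature B cells, -0.42 in pro-B and large pre-B cells, -0.49 in plasmacytoid DCs, -0.84 in mature B cells, -2.19 in small pre-B cells, 1.57 in monocytes and 0.38 in all cells, day 7 gave -0.62 in small pre-B cells, -0.85 in plasmacytoid DCs, -1.61 in monocytes and -2.61 in all cells, and the sorted libraries gave -1.58 in all cells and -1.89 in monocytes. With scaling by the median of gene ratios, immature and mature B cells on day 2 were at -0.25 and -1.01, and all cells at 0.48 and -1.34 on days 2 and 7. Less the neutrophil level, all cells on day 2 were at 0.72, and without the 20 most abundant genes all cells were at 0.65 and -1.57.

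With stricter gates small pre-B cells were at -2.60 and -0.50 on days 2 and 7, monocytes at 0.36 and -1.87, plasmacytoid DCs on day 7 at -0.69, mature B cells on day 2 at -0.87, and macrophages on day 2 at 0.73, with Cd74 at 0.68, H2-Aa at 0.69, H2-Ab1 at 1.0, H2-Eb1 at 0.68 and H2-DMb1 at 0.31 there. H2-DMb2 in small pre-B cells then was at 0.012 and 1.87 on days 2 and 7. Without high cells monocytes were at -0.58 and -1.26 on days 2 and 7 and -0.77 in the sorted pair, and small pre-B cells without Mki67 or Top2a were at -2.19. Of 45 pathway counts 15 moved, with no filter on low genes or with median scaling.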
